A study of Homo sapiens with 8 samples.

Results

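The genes described here are the metallothioneins MT1E, MT1F, MT1G, MT1M, MT1X and MT2A and the zinc exporter SLC30A1 in 2 human bladder cancer cell lines. The 7 genes were taken by name, with earlier results of these data known, and each has 1 entry among the 27475 human genes of the expression table. UM-UC-3 and RT112, both established lines, were transfected for 72 h with 100 pmol of pooled siRNA, which was directed at PAI-1 (siPAI-1, 3 sequences) or scrambled (Scr, 3 sequences). Each of the 4 groups holds 2 libraries, numbered replicate 1 and 2, of stranded mRNA read as single reads of 75 bases. All cells, controls included, were transfected, and no untransfected cells or added metal formed part of the comparison. The lines were kept in one of a pair of culture media, and which line received which medium is not given in the sources used here, so medium and line cannot be told apart. The study describes independent knock-down experiments, but the labels do not say whether the libraries analysed here came from separate ones. The p-values therefore measure the spread between these libraries, which may be technical.

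Metallothioneins are small, cysteine-rich cytoplasmic proteins that bind zinc, copper and cadmium, and they can also take up platinum drugs and scavenge oxidants. Zinc that accumulates in a cell is sensed by the transcription factor MTF1, which binds metal response elements in the promoters of metallothionein genes and of SLC30A1, the exporter that moves zinc out across the plasma membrane. Glucocorticoid receptor, SP1, USF and NRF2 binding sites have been described in some metallothionein promoters. MT2A and MT1X are broadly expressed, while the other human MT1 genes are more restricted between tissues.

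The promoters of MT2A, MT1X and SLC30A1 are shown, the only members with a promoter sequence at hand and also those with the highest levels. They were searched for the core letters of the element through which MTF1 acts. The windows are the 250 bases before each annotated start (RefSeq, GRCh38.p14), read 5′ to 3′ on the gene's strand, and lie at chr16:56608334-56608583 (plus strand) for MT2A, chr16:56682220-56682469 (plus strand) for MT1X and chr1:211579162-211579411 (minus strand) for SLC30A1. Capitals mark the metal response element core, TGCACNC or TGCGCNC on either strand. A core on the opposite strand therefore reads as its reverse complement.
MT2A: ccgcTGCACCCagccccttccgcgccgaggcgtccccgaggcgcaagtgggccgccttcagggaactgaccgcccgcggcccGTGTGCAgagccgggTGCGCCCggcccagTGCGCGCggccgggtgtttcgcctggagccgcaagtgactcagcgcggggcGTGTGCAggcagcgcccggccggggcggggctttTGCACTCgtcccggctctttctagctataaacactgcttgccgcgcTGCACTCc
MT1X: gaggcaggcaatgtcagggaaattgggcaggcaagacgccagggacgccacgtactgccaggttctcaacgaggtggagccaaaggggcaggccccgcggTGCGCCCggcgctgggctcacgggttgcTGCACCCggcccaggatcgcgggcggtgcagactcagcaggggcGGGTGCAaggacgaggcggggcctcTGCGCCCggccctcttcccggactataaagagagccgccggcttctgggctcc
SLC30A1: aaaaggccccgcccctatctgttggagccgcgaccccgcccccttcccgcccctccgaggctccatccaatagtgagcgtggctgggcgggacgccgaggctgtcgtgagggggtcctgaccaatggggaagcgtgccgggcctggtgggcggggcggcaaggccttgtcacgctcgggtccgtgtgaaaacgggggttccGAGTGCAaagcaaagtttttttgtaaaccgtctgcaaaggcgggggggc
The MT2A window held 7 cores, the first at -246 and the last ending at -2 where -1 is the base before the start. The MT1X window held 4 cores between -150 and -47, and the SLC30A1 window held 1 at -49 to -43. Of 35116 RefSeq promoter windows of the same length, 24.8% held at least 1 core, 0.37% at least 4 and 0.0313% at least 7. The antioxidant response element core, TGACNNNGC on either strand, occurred 1 time in each of the 3 windows and in 10.9% of all windows, and no copy overlapped a metal response element core. These are matches of letters and not measured binding sites. MT1E, MT1F, MT1G and MT1M were not matched in the promoter table. The 6 metallothionein members lie within 75.6 kb of chromosome 16 (56608584 to 56684196), in the order MT2A, MT1E, MT1M, MT1F, MT1G and MT1X, and SLC30A1 lies on chromosome 1 (211571568 to 211579161).

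Levels are the authors' TPM values, a gene's share of a library's transcripts after division by gene length, so levels may be compared between genes. The depth estimated from the authors' FPKM values was 29.3 to 34.2 M reads per library (M, mega), and the reads given for a gene rest on that estimate. Counting errors given below come from the number of reads alone. They leave out other differences between libraries and reads shared between genes. The lines differed in cell type markers in all libraries: 7 epithelial markers summed to 219 to 238 TPM in UM-UC-3 and 11362.1 to 13130.5 in RT112, 8 luminal urothelial markers to 7.23 to 8.09 and 1076.7 to 1218.8, and 4 mesenchymal markers to 3154.8 to 3438.1 and 14.3 to 27.1. Most of the mesenchymal sum in UM-UC-3 was VIM, and of the 4 genes 3 were called lower in RT112 Scr and 1, CDH2, higher (10.61 and 9.22 TPM in UM-UC-3 Scr, 18.19 and 20.58 in RT112 Scr). Of the 8 luminal markers, 6 reached 1 TPM in all 4 RT112 libraries and 1 did in all 4 UM-UC-3 libraries. The part of these cell type differences in the results below was not tested. The sum of 5 leukocyte and endothelial markers was 0.23 to 2.04 TPM. In bulk RNA, fewer cells of a type and less RNA per cell cannot be told apart.

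The metallothionein RNA of both lines was almost entirely MT2A, with MT1X a distant second. MT2A and MT1X were higher in UM-UC-3 than in RT112, whereas SLC30A1 and the low-level MT1F were higher in RT112. MT2A (ENSG00000125148.6), the main metallothionein of most human cells, stood at 1951.95 and 2016.86 TPM in UM-UC-3 Scr and at 640.47 and 627.13 in RT112 Scr. With siPAI-1 it stood at 2434.94 and 2504.19 TPM in UM-UC-3 and at 346.25 and 521.48 in RT112. Every UM-UC-3 library lay above every RT112 library, and the groups ran from UM-UC-3 siPAI-1 through UM-UC-3 Scr and RT112 Scr down to RT112 siPAI-1 with no overlap between neighbours, although the steps within a line were not called. MT2A was the 56th to 82nd most abundant entry in the UM-UC-3 libraries and the 227th to 445th in RT112. It was estimated from 2652.6 to 18809.7 reads per library. The 2 RT112 siPAI-1 libraries differed most, with an SD of 28.6% of their mean against a counting error of 1.78%, while in the other 3 groups the SD was 1.49% to 2.31%.

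MT1X (ENSG00000187193.8), a further metal-inducible isoform, followed the same order of groups. It stood at 77.04 and 65.15 TPM in UM-UC-3 Scr, 81.53 and 81.19 in UM-UC-3 siPAI-1, 39.98 and 35.86 in RT112 Scr, and 22.12 and 32.32 in RT112 siPAI-1. Again every UM-UC-3 library exceeded every RT112 library. The gap between MT2A and MT1X differed by line: MT2A was 25.3 to 31 times MT1X in the UM-UC-3 libraries and 15.7 to 17.5 times in the RT112 libraries. MT2A made up 96.2% to 96.9% of the summed TPM of the 6 members in UM-UC-3 and 93.6% to 94.4% in RT112.

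The summed level of the 6 metallothioneins was 2055.9 ± 37.5 TPM (SD, n = 2) in UM-UC-3 Scr, 2551.2 ± 48.8 in UM-UC-3 siPAI-1, 673 ± 12.6 in RT112 Scr and 463 ± 132 in RT112 siPAI-1. This sum was 3.05 times as high in UM-UC-3 Scr as in RT112 Scr (± 0.0798, propagated SD). It took 0.203% to 0.259% of all TPM in UM-UC-3 libraries and 0.037% to 0.0682% in RT112 libraries.

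**Figure D1:**
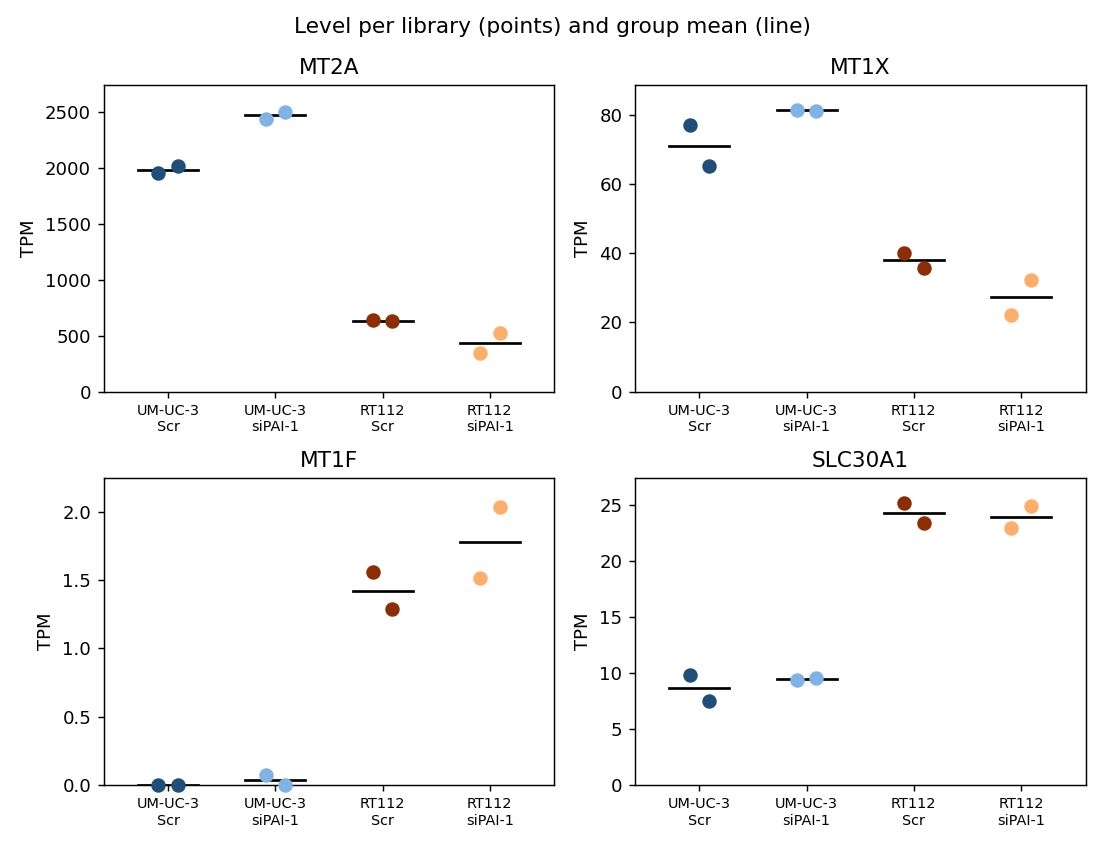
TPM (linear axis from 0) of MT2A, MT1X, MT1F and SLC30A1 in each library (points) with the mean of the 2 libraries (line), for UM-UC-3 and RT112 with Scr or siPAI-1. MT2A and MT1X lie higher in the UM-UC-3 libraries, MT1F and SLC30A1 in the RT112 libraries, and the 2 RT112 siPAI-1 libraries are the farthest apart for MT2A (346.25 and 521.48 TPM).

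The other 4 metallothionein members were at or near 0. MT1F (ENSG00000198417.6) was listed at 0 in both UM-UC-3 Scr libraries and in UM-UC-3 siPAI-1 replicate 2, and at 0.07 TPM in replicate 1. In RT112 it stood at 1.56 and 1.29 TPM with Scr and at 1.52 and 2.04 with siPAI-1. All 4 RT112 libraries were thus above all 4 UM-UC-3 libraries, on an estimated 9.2 to 15.4 reads per RT112 library against 0 to 0.6 in UM-UC-3. A count of 0 allows up to 3 reads, or 0.362 to 0.425 TPM of MT1F depending on the library, and the RT112 values exceed that limit.

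MT1E (ENSG00000169715.14) had, in the Scr libraries, the reverse pattern at a still lower level. It stood at 0.38 and 0.35 TPM in UM-UC-3 Scr, 0.07 and 0.38 in UM-UC-3 siPAI-1, 0.08 and 0 in RT112 Scr, and 0 and 0.22 in RT112 siPAI-1. The Scr groups did not overlap and the siPAI-1 groups did. The largest of these values rests on an estimated 5.3 reads and all 8 together on 21.1 reads. MT1G (ENSG00000125144.13) was at 0.11 TPM in UM-UC-3 siPAI-1 replicate 1, an estimated 0.9 reads, and was listed at 0 elsewhere. MT1M (ENSG00000205364.3) was listed at 0 in all 8 libraries, where 3 reads would be 0.392 to 0.461 TPM. Neither gene was detectable above that limit at this depth.

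The other metallothionein loci that had an entry were also at or near 0. Of 15 further loci of the family, 6 had an entry in the table, and the level of the rest is unknown. Of these 6, 4 were above 0 in 1 library, with a highest value of 0.36 TPM. That value was MT1B in RT112 Scr replicate 2, and MT1A reached 0.15 TPM in RT112 Scr replicate 1. Of 9 genes listed as neighbours of the cluster, 7 were tested and 3 were called between the Scr groups. These were NLRC5, a regulator of MHC class I genes, with a log2 difference of -1.87, OGFOD1, a prolyl hydroxylase, with 0.46, and NUDT21, a cleavage and polyadenylation factor, with 0.25. OGFOD1 and NUDT21 lie at -157.1 and -179.5 kb from the MT2A start, and the distance of NLRC5 was not worked out. The median log2 difference of the tested neighbours was -0.21 against -0.06 over all genes, of which 25.3% were called higher in RT112 Scr and 26.3% lower. Between the siPAI-1 groups 1 neighbour was called higher, 2 lower and 4 not, against 26.2% higher and 26.1% lower over all genes.

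**Figure D2:**
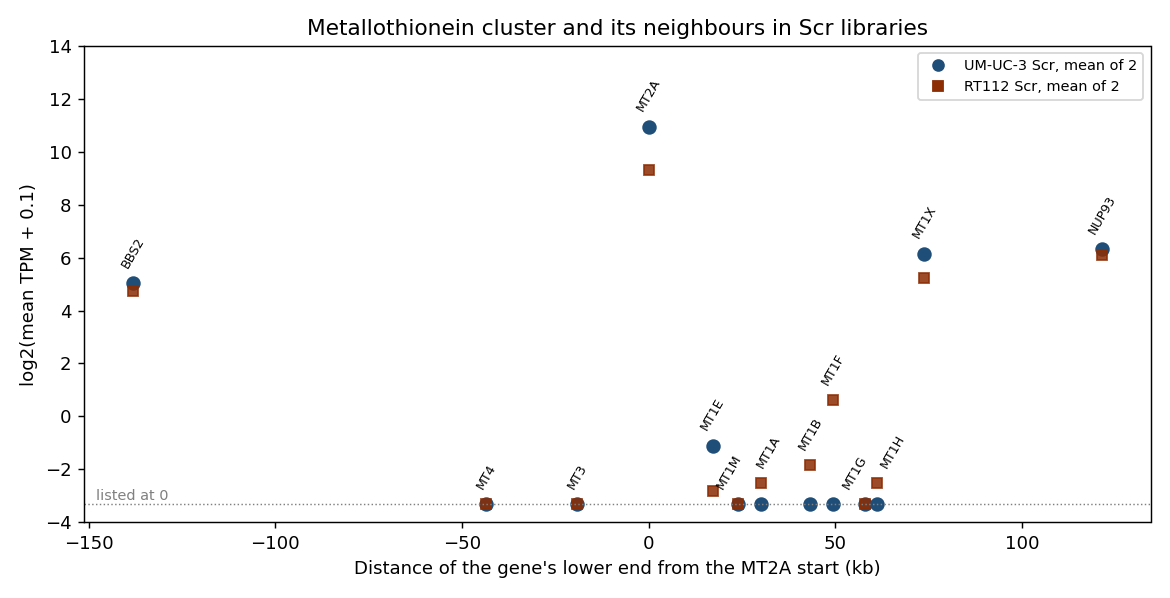
Mean level in Scr libraries, as log2(mean TPM + 0.1), of the metallothionein genes and 2 neighbours (BBS2 and NUP93) against their distance in kb from the MT2A start, for UM-UC-3 (circles) and RT112 (squares). MT2A and MT1X, at the outer parts of the 75.6 kb that hold the 6 members, are the metallothioneins with high levels in both lines, and the genes between them lie lower, most of them at or near the dotted line that marks a value of 0.

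Because metallothionein transcripts resemble each other, the share of 75-base windows that a canonical transcript has in common with other transcripts was counted in an annotation of another build (GENCODE, GRCh37), which bears on sequence and not on position. MT2A had 0 of 327 windows identical to another gene, MT1F 0 of 351, MT1M 0 of 324 and SLC30A1 0 of 5819. MT1E had 11 of 672, MT1G 22 of 336 and MT1X 119 of 330. Those of MT1X were shared with the annotated gene ENSG00000259827, with MT1G or with the pseudogene MT1XP1. The level of MT1X is therefore uncertain to the degree that the authors' counting split or dropped shared reads. With up to 2 mismatches inside the family allowed, the shares rose to 28.4% for MT2A, 50% for MT1X, 17% for MT1E, 22% for MT1G, 21.3% for MT1M and 1.42% for MT1F.

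SLC30A1 (ENSG00000170385.9) ran opposite to MT2A between the lines. It stood at 9.86 and 7.48 TPM in UM-UC-3 Scr, 9.41 and 9.54 in UM-UC-3 siPAI-1, 25.22 and 23.43 in RT112 Scr, and 22.93 and 24.97 in RT112 siPAI-1. Every RT112 library exceeded every UM-UC-3 library, and within each line the Scr and siPAI-1 ranges overlapped. Its estimated reads numbered 982.6 to 3126.4 per library. The largest spread was between the 2 UM-UC-3 Scr libraries, with an SD of 19.4% of the mean against a counting error of 3.03%.

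The line comparison was tested with limma on log2(TPM + 0.1). The p-values of all genes tested were adjusted together by the Benjamini-Hochberg method, and a gene was called at an adjusted p under 0.05. On this scale the change of a low gene is understated. The 2 lines differed widely: of 19201 genes tested between the Scr groups, 25.3% were called higher in RT112 and 26.3% lower. Of the 7 members, 5 were tested, of which 2 were called higher in RT112 and 3 lower, so a call alone does not set the members apart from other genes. MT1G and MT1M, at 0 in the 4 Scr libraries, were not tested.

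MT2A was lower in RT112 Scr than in UM-UC-3 Scr by 1.65 on the log2 scale (a log2 difference of -1.65, SE 0.04, adjusted p = 0.000274), or 3.13-fold, and ranked 128th of the 19201 genes by p. MT1X was 1.87-fold lower (log2 difference -0.9, SE 0.12, adjusted p = 0.0053). This MT1X call was lost when any 1 of the 4 libraries was left out, where the log2 difference was -1.02 to -0.78. Fewer of all genes were called in those fits too, as given below. MT1E was called lower (log2 difference -1.79, SE 0.41, adjusted p = 0.0257) on the few reads given above. The size depends on the pseudocount, at -0.39 with 1 TPM and -3.64 with 0.01 TPM. The MT1E call was lost with a pseudocount of 0.01 TPM (adjusted p = 0.0882) and in 1 fit over all 8 libraries (adjusted p = 0.0765). It was also lost without UM-UC-3 Scr replicate 1 or 2. MT1F was called higher in RT112 Scr (adjusted p = 0.00144), and no fold is given because both UM-UC-3 Scr libraries are listed at 0. SLC30A1 was 2.81-fold higher in RT112 Scr (log2 difference 1.49, SE 0.17, adjusted p = 0.0038). The SLC30A1 call was lost without RT112 Scr replicate 1 (log2 difference 1.44) or without replicate 2 (log2 difference 1.54).

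The siPAI-1 libraries allowed the same comparison in samples not used above. Of 19359 genes tested, 26.2% were called higher in RT112 siPAI-1 and 26.1% lower. Of the 6 members tested, 2 were called higher and 2 lower. MT2A was 5.81-fold lower in RT112 (log2 difference -2.54, SE 0.21, adjusted p = 0.00183) and MT1X 3.04-fold lower (log2 difference -1.6, SE 0.2, adjusted p = 0.00502). SLC30A1 was 2.51-fold higher (log2 difference 1.33, SE 0.1, adjusted p = 0.00133) and MT1F was again called higher (adjusted p = 0.00346). MT1E was not called, with a log2 difference of -0.68 (SE 0.84, adjusted p = 0.532), nor was MT1G (log2 difference -0.54, SE 0.44, adjusted p = 0.37). When 1 of the UM-UC-3 siPAI-1 libraries was dropped, replicate 1 or else replicate 2, the adjusted p was 0.0833 or 0.084 for MT2A and 0.125 or 0.124 for MT1X. For MT1F it was 0.0656 or 0.074 when replicate 1 or 2 of RT112 siPAI-1 was dropped.

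**Figure D3:**
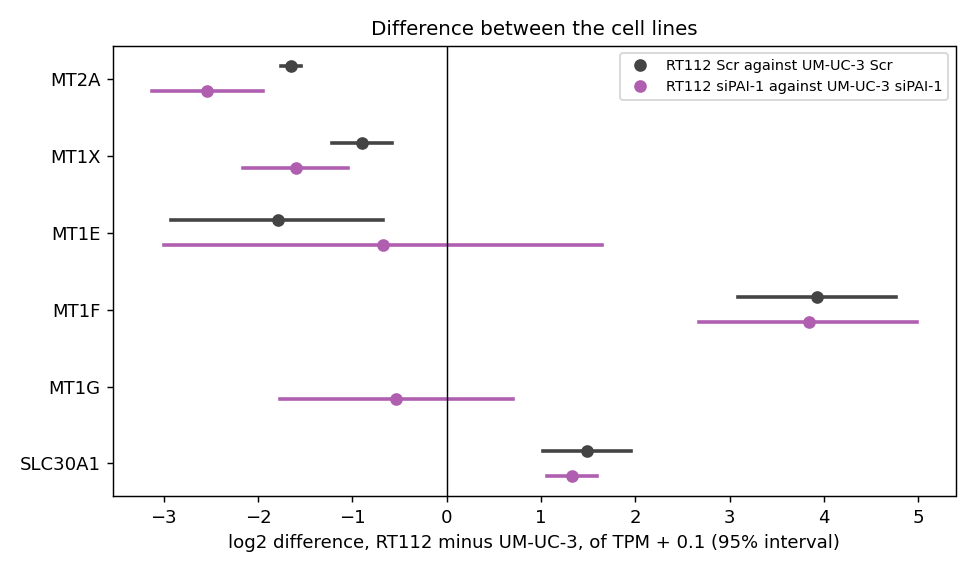
Log2 difference of TPM + 0.1, RT112 minus UM-UC-3 (x axis), with its 95% interval from limma for each member tested, in Scr (grey) and siPAI-1 (purple) libraries. MT2A and MT1X lie below 0 and MT1F and SLC30A1 above 0 in both, while the intervals of MT1E and MT1G in siPAI-1 libraries include 0. The sizes of the MT1F and MT1E differences depend on the pseudocount.

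Within the lines, siPAI-1 libraries had more MT2A and MT1X than Scr libraries in UM-UC-3 and less in RT112, but neither difference was called. In UM-UC-3, MT2A had a mean of 2469.6 ± 49 TPM (SD, n = 2) with siPAI-1 and 1984.4 ± 45.9 with Scr, a log2 difference of 0.32 (SE 0.05, 95% interval 0.18 to 0.45). Its unadjusted limma p of 0.00207 ranked 37th of 18528 genes, and the adjusted p was 0.791. MT1X differed by 0.2 on the log2 scale (SE 0.09, 95% interval -0.04 to 0.44, adjusted p = 0.858). SLC30A1 differed by 0.14 (SE 0.18, 95% interval -0.32 to 0.6, adjusted p = 0.886). The 3 low members tested, MT1E, MT1F and MT1G, had adjusted p-values of 0.864 to 0.875.

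In RT112, MT2A had a mean of 434 ± 124 TPM with siPAI-1 and 634 ± 9.43 with Scr, a log2 difference of -0.58 (SE 0.2, 95% interval -1.1 to -0.05). The unadjusted limma p was 0.0375, 739th of 18437 genes, and the adjusted p was 0.838. The size rested on the siPAI-1 libraries, which differ from each other: the log2 difference was -0.28 without replicate 1 and -0.87 without replicate 2. MT1X differed by -0.5 (SE 0.2, 95% interval -1.03 to 0.03, adjusted p = 0.838). SLC30A1 differed by -0.02 (SE 0.1, 95% interval -0.28 to 0.23, adjusted p = 0.968), and MT1E and MT1F had adjusted p-values of 0.913 and 0.877.

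No member and no other gene was called by limma for siPAI-1 in UM-UC-3 or in RT112 (0% of 18528 and 0% of 18437 genes). Without adjustment, p was under 0.05 in limma for 482 genes higher and 632 lower with siPAI-1 in UM-UC-3, 6.01% of those tested. In RT112 it was so for 617 higher and 446 lower, 5.77% of those tested. With no effect at all, an unadjusted p under 0.05 would occur in a share near these. Of the 7 members, 2 (MT2A and MT1X) had both siPAI-1 libraries above both Scr libraries in UM-UC-3, as did 15.1% of all genes tested. The same 2 had both siPAI-1 libraries below both Scr libraries in RT112, as did 14.7% of all genes tested. Both conditions were met by these 2 members and by 2.24% of 20274 genes.

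The difference of the siPAI-1 effect between the lines was tested as an interaction in 1 limma fit over the 8 libraries. It was called for 0% of 20274 genes. An unadjusted p below 0.05 was found for 811 genes with a positive and 559 with a negative interaction, together 6.76% of those tested. For MT2A the interaction was -0.89 (SE 0.24, 95% interval -1.46 to -0.32, unadjusted p = 0.00791, adjusted p = 0.632), the 246th smallest p. Leaving out RT112 siPAI-1 replicate 2 gave -1.19 with an adjusted p of 0.0279, a call, whereas leaving out any other library gave none. For MT1X it was -0.7 (SE 0.25, unadjusted p = 0.0292, adjusted p = 0.694) and for SLC30A1 -0.16 (adjusted p = 0.873).

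**Figure D4:**
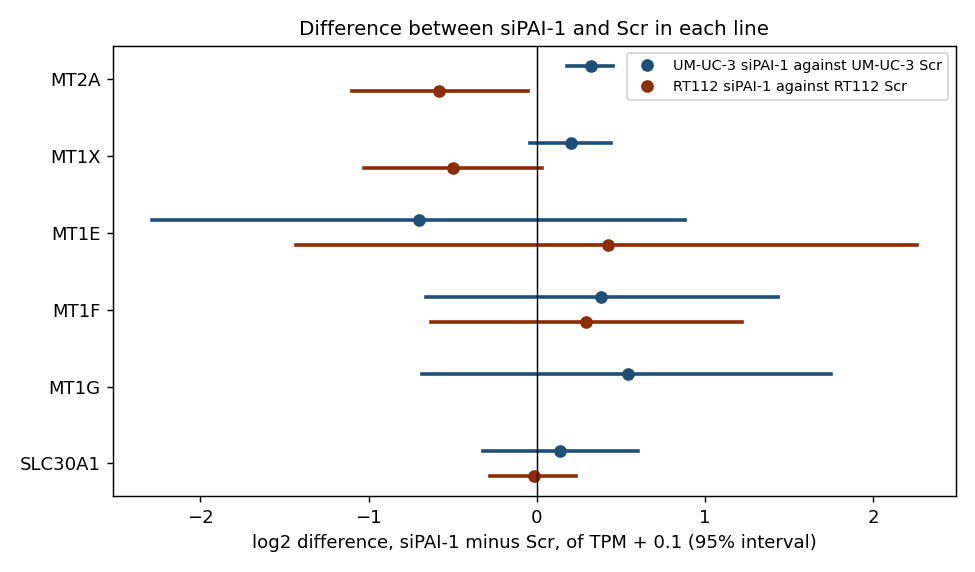
Log2 difference of TPM + 0.1, siPAI-1 minus Scr (x axis), with its 95% interval from limma for each member tested, in UM-UC-3 (blue) and RT112 (brown). The intervals of MT2A lie on opposite sides of 0 in the 2 lines, at 0.18 to 0.45 and -1.1 to -0.05, and those of the other members include 0. No adjusted p was under 0.05.

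Of the other zinc transporters, the SLC30 exporters and the SLC39 importers were listed by family name, not by the metal or membrane of each gene. Among 9 further exporters, 8 were tested between the Scr groups, of which 3 were called higher in RT112, 1 lower and 4 not called. Their median log2 difference was 0.3 against -0.06 over all genes, of which 25.3% were called higher and 26.3% lower. SLC30A9 had a log2 difference of 0.89 (adjusted p = 0.00385), SLC30A6 of 0.6 (adjusted p = 0.0183) and SLC30A3 of -1.29 (adjusted p = 0.0219). The third exporter called higher, SLC30A10 (adjusted p = 0.0489), was at 0.08 TPM in both RT112 Scr libraries and listed at 0 in both UM-UC-3 Scr libraries, so no size is given, and it was not called between the siPAI-1 groups (adjusted p = 0.466). Between the siPAI-1 groups, 1 of 7 exporters tested was called higher in RT112, 1 lower and 5 not. Of all genes, 26.2% were called higher and 26.1% lower between the siPAI-1 groups. Among 14 importers, 12 were tested, of which 6 were higher in RT112, 3 lower and 3 not called, with a median of 0.59, and between the siPAI-1 groups 7 of 13 were higher, 3 lower and 3 not called.

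Among the importers, SLC39A4, the zinc importer of the intestinal surface, had the largest positive difference, and SLC39A14, which carries zinc and non-transferrin iron, the largest negative one. SLC39A4 stood at 0.68 and 0.42 TPM in UM-UC-3 Scr and at 145.4 and 139.54 in RT112 Scr (log2 difference 7.81, adjusted p = 0.000313). SLC39A14 went the way of MT2A, at 73.65 and 69.76 TPM in UM-UC-3 Scr and 11.62 and 11.19 in RT112 Scr (log2 difference -2.64, adjusted p = 0.000311). Both kept these directions in the siPAI-1 libraries, with log2 differences of 7.89 (adjusted p = 0.00114) and -3 (adjusted p = 0.000733). SLC39A2 was called higher in RT112 Scr, at 3.28 and 3.41 TPM, and no size is given because both UM-UC-3 Scr libraries are listed at 0. SLC39A13 and SLC39A3 were lower in RT112, with log2 differences of -1.71 and -1.51. No zinc transporter was called for siPAI-1 in either line.

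**Figure D5:**
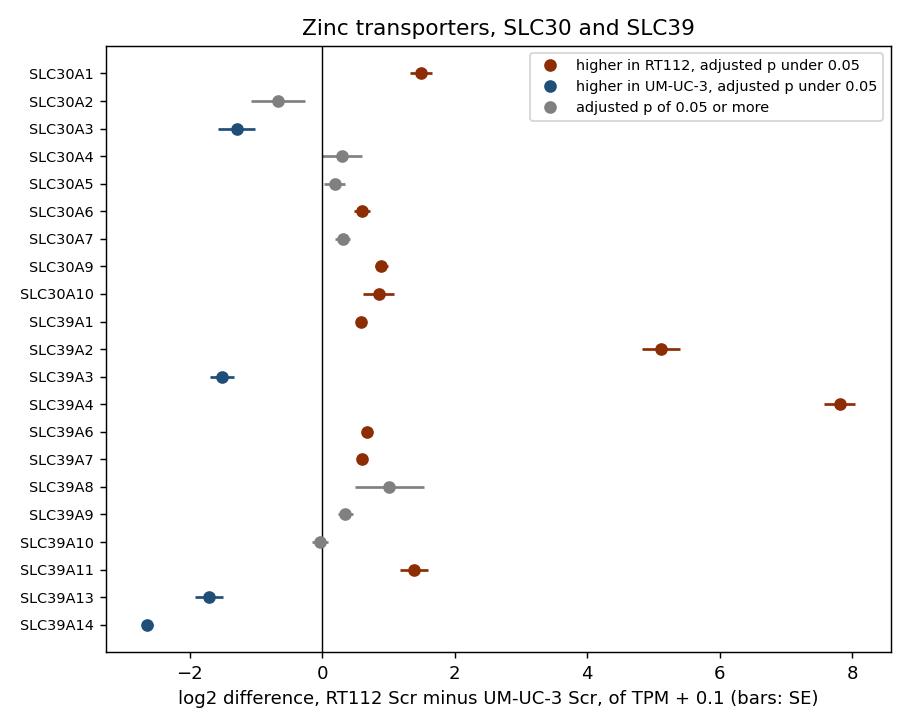
Log2 difference of TPM + 0.1, RT112 Scr minus UM-UC-3 Scr (x axis, bars give the SE), for SLC30A1 and each other SLC30 and SLC39 zinc transporter tested. Brown points were called higher in RT112, blue points higher in UM-UC-3 and grey points not called. SLC39A4 (7.81) and SLC39A14 (-2.64) lie at the 2 ends and SLC30A1 stands at 1.49. The positions of SLC39A2 and SLC30A10, listed at 0 in UM-UC-3 Scr, depend on the pseudocount.

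The factors described on metallothionein promoters did not move as 1 group. Of 6, 2 were called higher in RT112 Scr, 3 lower and 1 not, with a median log2 difference of -0.35. Over all genes tested, 25.3% were called higher and 26.3% lower. MTF1, the zinc sensor, was higher in RT112, where MT2A was lower, at 12.17 and 12.93 TPM against 8.11 and 6.04 (log2 difference 0.83, adjusted p = 0.0246). NFE2L2, which encodes the oxidant-responsive factor NRF2, was also higher (0.66). NR3C1, the glucocorticoid receptor, was lower at 23.25 and 22.89 TPM against 46.72 and 44.85 (log2 difference -0.99, adjusted p = 0.00117), as were USF2 (-0.52) and SP1 (-0.44).

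Among 7 glucocorticoid response genes, 1 was called higher in RT112 Scr, 5 lower and 1 not, with a median log2 difference of -1.04. Over all genes tested, 25.3% were called higher and 26.3% lower. KLF9, a transcription factor, had a log2 difference of -5.44 and the kinase SGK1 of -2.54. The phosphatase DUSP1 had -2.44 and the receptor co-chaperone FKBP5 -1.04, while TSC22D3, also called GILZ, had 1.04. KLF9 stood at 0.08 and 0.07 TPM in RT112 Scr, so the size of its difference depends on the pseudocount. Among 10 metal and oxidative stress genes, 4 were higher, 5 lower and 1 not called, with a median of -0.36. HMOX1, haem oxygenase, was lower in RT112 Scr at 11.64 and 13.66 TPM against 148.13 and 139.37 (log2 difference -3.5, adjusted p = 0.000313), TXNRD1, a thioredoxin reductase, had -1.94 and GCLC, a glutathione synthesis enzyme, 1.29. HSPA1A (-2.49) and HSPA1B (1.38), near-identical heat shock genes, are uncertain since reads may have been split between them.

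For other metals, 6 of 13 copper genes were higher in RT112 Scr, 3 lower and 4 not called (median log2 difference 0.22), with STEAP2 at -2.83, STEAP4 at 2.66, SLC31A2 at 1.93, COMMD1 at -1.04 and STEAP3 at 1.01. STEAP2 and STEAP4 were under 2 TPM in all 8 libraries, where the size depends on the pseudocount. Of 9 iron genes tested among 11, 6 were higher, 1 lower and 2 not called (median 0.59). Over all genes tested, 25.3% were called higher in RT112 Scr and 26.3% lower. The iron exporter SLC40A1 had a log2 difference of 5.63, the iron regulator IREB2 1.6 and ferritin heavy chain FTH1 1.03. Ferritin light chain FTL was lower at -2.1. SLC40A1 stood at 0.15 and 0.01 TPM in UM-UC-3 Scr, so the size of its difference also depends on the pseudocount. The ferroxidase CP was called higher in RT112 Scr, at 2.54 and 4.76 TPM, and was listed at 0 in all 4 UM-UC-3 libraries, so no size is given. Both ferritin genes have processed pseudogenes that could share reads with them. In the siPAI-1 libraries the counts for copper and iron were the same (6, 3 and 4, and 6, 1 and 2), those for the glucocorticoid genes were 1, 5 and 1, for the stress genes 3 higher, 6 lower and 1 not called, and for the promoter factors 2, 2 and 2. Between the siPAI-1 groups, 26.2% of all genes were called higher in RT112 and 26.1% lower. No gene of these lists was called for siPAI-1 in either line.

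The genes whose pattern over the 8 libraries was most like that of a member were found by the root mean square difference of log2(TPM + 0.1) after each gene was centred on its own mean, over 12800 genes whose mean TPM was 1 or more. For MT2A these were GGT7 (0.12), MARCH4 (0.15), HMGA2 (0.15), PSAT1 (0.16) and SCD5 (0.17), of which PSAT1 is an enzyme of serine synthesis and HMGA2 an architectural chromatin protein. HMGA2, for example, stood at 75.6 and 79.52 TPM in UM-UC-3 Scr, 85.93 and 84.82 in UM-UC-3 siPAI-1, 17.59 and 20.94 in RT112 Scr and 10.76 and 18.17 in RT112 siPAI-1. MT1X itself was at 0.43 from MT2A, and 490 genes were closer. For SLC30A1 the nearest included IQCB1 (0.05), HSPA1B (0.08), ACSF3 (0.09) and CDT1 (0.09). For MT1E, which rests on few reads, they were PALM2-AKAP2 (0.25), RP11-644F5.10 (0.3), ZNF837 (0.38), RP11-108O10.8 (0.41) and SLC25A45 (0.44). The 8 libraries are 4 of each line, so the distance is a description of these libraries only.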

How the data were processed

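RNA-seq was analysed from UM-UC-3 and RT112 cells with Scr or siPAI-1, 2 libraries per group, assigned from their titles. Gene-level TPM and FPKM were deposited by the authors. The deposited TPM values are scaled to gene length and to the same sum in each library, and the deposited FPKM values to gene length and total reads. The submitters' processing notes name STAR 2.5.0, RSEM 1.2.25 and GRCh38, whereas the methods name cutadapt, STAR, featureCounts and DESeq2, which needs counts. Counts were not used here, so DESeq2 could not be, and TPM values were tested on the log scale. Spike-in entries (92 ERCC) were left out.

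Linear models were fitted to log2(TPM + 0.1) with limma 3.58.1 (R 4.3.3), with a trended eBayes step and two-sided p-values. All genes with a value above 0 in any fitted library were tested, and p was adjusted after Benjamini and Hochberg. Only the groups compared entered a fit, and the interaction used all 8 libraries. The fit was tested on simulated data. Depth was estimated as the number of reads (searched from 20 to 45 M, M for mega) that brought FPKM values of 346 to 399 short genes with 1 transcript nearest to whole reads. At that depth 73.3% to 79.5% of their values were within 0.1 of a whole read. A depth 2 times as large would also give whole reads, and reads per gene would then rise with it. A 0 may be a failed estimate, so such genes are called listed at 0. Promoters and positions came from RefSeq tables (GRCh38.p14). Summaries used Python 3.11.15 with pandas 2.3.3.

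Named are the 7 members, up to 5 called genes of each list and comparison by size of the fold change (or else the 2 with the highest mean TPM), of which the text gives those of the Scr comparison, and the 5 genes nearest in pattern to MT2A, MT1E and SLC30A1. Of the genes this rule covers, 2 are not reported here. The members and lists were chosen with earlier results of these data known. The alternatives tried were FPKM values, pseudocounts of 1 and 0.01 TPM, median ratio rescaling, a filter at a mean of 1 TPM, 1 fit over all 8 libraries, eBayes without trend, a replicate block and each library left out.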

Additional observations from a re-analysis of the deposited data

Results flagged for a closer look

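MT2A and MT1X were singled out because every siPAI-1 library lay above every Scr library in UM-UC-3 and below every Scr library in RT112. The siPAI-1 libraries thus differed from Scr in opposite directions in the 2 lines, but no difference within a line was called. The interaction of siRNA and cell line was -0.89 for MT2A (limma, unadjusted p = 0.00791, adjusted p = 0.632) and -0.7 for MT1X (unadjusted p = 0.0292, adjusted p = 0.694). Neither passed the correction over all genes. Both genes were picked by the order of these same libraries. The unadjusted p-values and the ranges below therefore cannot serve as separate evidence for the pattern. The pattern was also met by 2.24% of all genes tested. Over the alternatives that kept all libraries the interaction of MT2A ranged from -0.91 to -0.88 and that of MT1X from -0.72 to -0.68. With 1 library left out they ranged from -1.19 to -0.6 and from -0.97 to -0.43.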

How the results depend on the processing

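The differences of MT2A between the lines lay between -2.83 and -1.6 on the log2 scale under all alternatives run. With 1 library left out, genes called between the Scr groups numbered 2975 to 3120 higher and 2655 to 3589 lower in RT112, and those between the siPAI-1 groups 2492 to 3904 higher and 2802 to 3238 lower. The lone library of a group is there assumed to vary like the others, and the cause of the lower counts was not tested. The interaction gave 0 to 101 genes higher and 0 to 42 lower with 1 library left out, the most without RT112 siPAI-1 replicate 2 and UM-UC-3 siPAI-1 replicate 1, and 4 higher and 3 lower with eBayes without trend. For siPAI-1, a filter at a mean of 1 TPM gave 1 gene lower in UM-UC-3, and 1 fit over all 8 libraries gave 2 genes higher in RT112. The ratio of the summed 6 metallothioneins, RT112 Scr over UM-UC-3 Scr, was 0.327 and became 0.338 under median ratio rescaling.

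Directions that turned belong to low or nearly equal values, none of them called. With 1 library left out, the log2 difference of MT1E ranged from -1.51 to 0.16 between the siPAI-1 groups and the effect of siPAI-1 on it from -1.45 to 0.05 (UM-UC-3) and from -0.42 to 1.25 (RT112). That of SLC30A1 ranged from -0.06 to 0.34 (UM-UC-3, siPAI-1), -0.08 to 0.04 (RT112, siPAI-1) and -0.36 to 0.03 (interaction). The interaction of MT1F ranged from -0.47 to 0.29, and it was 0.14 with a pseudocount of 1 TPM. The size of the MT1F difference between the Scr groups followed the pseudocount, from 1.28 to 7.16 over the alternatives. MT1G between the siPAI-1 groups was called without UM-UC-3 siPAI-1 replicate 2 (-1.07, adjusted p = 0.0215), where a single value of 0.11 TPM decides it.

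Libraries of the same replicate number showed no large shared deviation in the comparisons within a line or a siRNA (correlations of -0.043 to 0.044 over 12803 genes). These correlations cannot tell whether libraries of the same number were made together. With a replicate block the Scr groups gave 4597 genes higher and 4790 lower and the siPAI-1 groups 4731 and 4634. The block called 0 genes for siPAI-1 and for the interaction, and it changed no call of a member. Depth limits MT1E, MT1F, MT1G and MT1M.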
